A study of Andrias davidianus with 4 samples.

Results

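Among the transcripts of Chinese giant salamander skin, 13 of 110708 assembled unigenes were set apart by a disagreement between the 2 albino libraries while the 2 wild type libraries matched. A unigene is a transcript sequence assembled from the reads. The 13 were chosen from the measured levels themselves, in CPM, the unique counts of a unigene per 1000000 unique counts of its library. Each had a mean of at least 20 CPM over the 4 libraries, wild type libraries within 1.5-fold of each other and albino libraries at least 4-fold apart, after 0.5 was added to the counts. The 200 unigenes with the highest mean were left out. The gap between the albino libraries and the agreement of the wild type libraries are therefore properties of the choice and not findings.

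RNA was sequenced from skin of Andrias davidianus, a large aquatic salamander, after removal of ribosomal RNA, with 2 libraries of the genotype given as wild type and 2 of the genotype given as albino type. The labels give no age, sex or gene behind the albino type, and do not say whether the replicates came from separate animals. The libraries held 16854176 to 17547197 unique counts. No library was a copy of another, since a chi-square statistic per unigene, which is near 1 under sampling noise, was 5.08 for the wild type libraries and 20.5 for the albino libraries. It lay between 73.2 and 76.6 for libraries of different groups.

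Albino amphibians lack melanin, the dark pigment that melanophores make in skin. Amphibian skin is also a mixed tissue of epidermis, mucous and granular glands, connective tissue, vessels and nerves, lying on muscle. A gap between the albino libraries is not described by their shared label of albino type, and what differed between these 2 libraries is not given in the labels. Such a transcript can still differ between the groups. The files pair no unigene with a gene name, so neither the tissue nor any cell type could be checked against markers. In such bulk tissue, fewer cells of a type and less RNA per cell cannot be told apart. The 3 unigenes named by identifier are the most abundant in each direction of the gap, and the others are called by their length.

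The direction of the gap was uneven. In 12 of the 13 unigenes albino replicate 2 was the higher library, and in 1 it was albino replicate 1. A mean of at least 20 CPM was reached by 5349 unigenes, of which 1.53% had albino libraries at least 4-fold apart, 1.51% with the higher level in replicate 2 and 0.0187% with the higher level in replicate 1. Wild type libraries were at least 4-fold apart in 0.0935% of the same unigenes. With the roles of the groups exchanged, so that the albino libraries matched and the wild type libraries were 4-fold apart, the same limits found 1 unigene. It is 13115 bases long and had 1.36 and 0.290 CPM in wild type against 309 and 371 CPM in albino. Together the 13 unigenes took 0.106% and 0.109% of the unique counts in wild type, 0.0264% in albino replicate 1 and 0.198% in albino replicate 2.

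**Figure D1:**
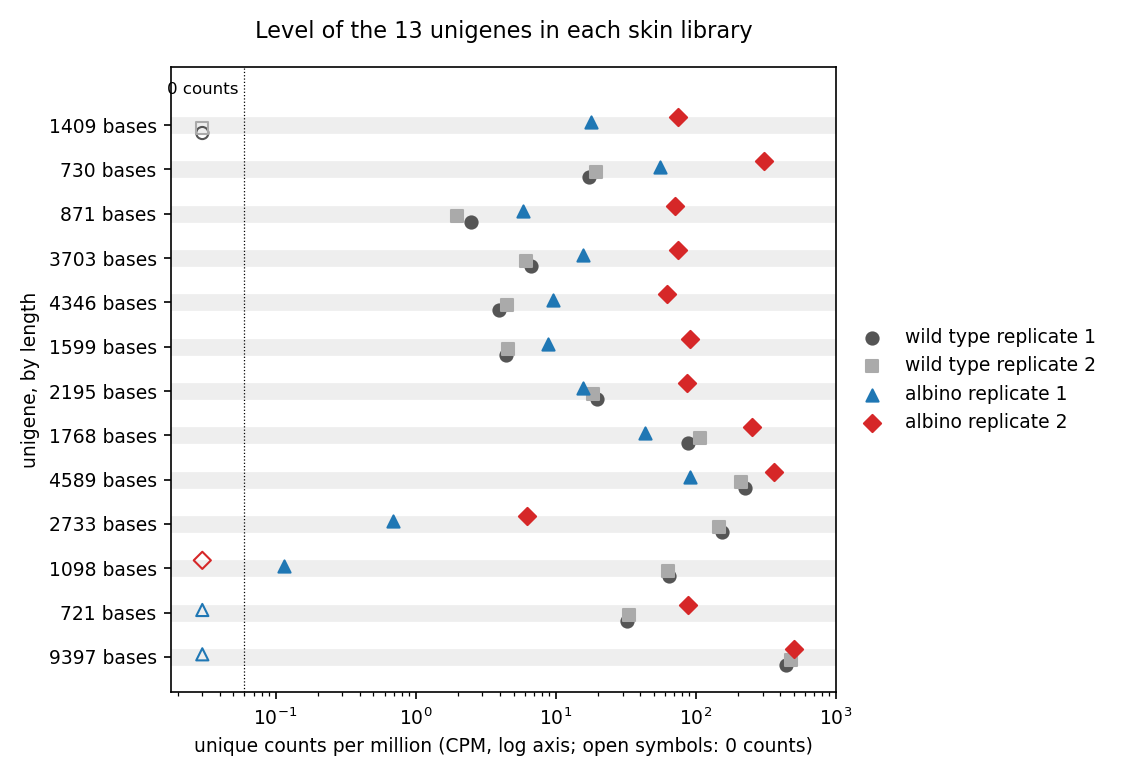
Level of each of the 13 unigenes in the 4 skin libraries, in CPM on a log axis, 1 symbol per library, with open symbols left of the dotted line for 0 counts. Rows are ordered by albino replicate 1 relative to wild type. The 9397-base and 721-base unigenes had 0 counts in albino replicate 1, the 1409-base unigene had 0 in both wild type libraries, and the wild type symbols lie side by side in every row.

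The largest gaps were those of 2 unigenes without a single unique count in albino replicate 1. UniGene_149033, 9397 bases long and the most abundant of the 13, had 7409 and 8209 unique counts in wild type, 8785 in albino replicate 2 and 0 in albino replicate 1. These are 439.6 and 476 CPM in wild type, or 458 ± 25.5 CPM (SD, n = 2), and 501 CPM in albino replicate 2. Albino replicate 2 thus lay 1.09-fold above the wild type mean, close to the 1.08-fold difference between the wild type libraries. Against a floor of 3 counts in the library, which is 0.173 CPM, albino replicate 1 was at least 2649-fold lower than wild type. The floor covers counting error only, and the exact 95% counting interval begins at 2155-fold. The authors' FPKM, a level per kilobase, was 46.3 and 49.8 in wild type and 51.8 in albino replicate 2, and was listed at 0 in albino replicate 1.

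The second of these, 721 bases long, had 547 and 571 unique counts in wild type, 1554 in albino replicate 2 and 0 in albino replicate 1. In CPM it stood at 32.5 and 33.1 in wild type and at 88.6 in albino replicate 2, which is 2.70-fold above the wild type mean of 32.8 ± 0.449 CPM (SD, n = 2). Albino replicate 1 was at least 190-fold lower than wild type by the same floor of 3 counts. The exact 95% counting interval begins at 154-fold. The albino libraries lay on opposite sides of the wild type level.

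The absence of a well-read transcript from a single library was found in albino replicate 1 alone, in a search added after the data were seen. Unigenes with 0 counts in 1 library and at least 5 CPM in each of the other 3 numbered 2 for albino replicate 1, and both are among the 13. They numbered 0 for each of the other 3 libraries.

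A pair of further unigenes straddled the wild type level without being absent. UniGene_115372, 4589 bases long, had 225 and 209.96 CPM in wild type, 91.0 in albino replicate 1 and 365 in albino replicate 2. Albino replicate 1 was 2.39-fold below and albino replicate 2 was 1.67-fold above the wild type mean of 218 ± 10.97 CPM (SD, n = 2). The mean over the albino libraries, 228 ± 193 CPM (SD, n = 2), lay close to that of wild type, with the albino libraries on either side of it. The 1768-base unigene had 88.6 and 108 CPM in wild type, 43.3 in albino replicate 1 and 251 in albino replicate 2. It was 2.27-fold below the wild type mean in the former and 2.56-fold above it in the latter.

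In 7 unigenes albino replicate 2 stood at least 4-fold above each of the other 3 libraries. Of these, the 2195-base unigene was the only one with albino replicate 1 below both wild type libraries, at 15.6 CPM against 19.6 and 18.5. Albino replicate 2 had 86.5 CPM there, 4.54-fold above the wild type mean of 19.1 ± 0.732 CPM (SD, n = 2).

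In the other 6 of these 7 both albino libraries lay above both wild type libraries, replicate 2 further than replicate 1. The 730-base unigene had 17.2 and 19.5 CPM in wild type, 55.9 in albino replicate 1 and 308 in albino replicate 2. That is 3.05-fold and 16.8-fold above the wild type mean. The 1599-base unigene had 4.45 and 4.58 CPM in wild type, 8.75 in albino replicate 1 and 91.4 in albino replicate 2, or 1.94-fold and 20.2-fold above.

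The same order was seen in 3 further unigenes that, like the 1599-base one, were low in wild type. The 3703-base unigene had 6.70 and 6.14 CPM in wild type, 15.6 in albino replicate 1 and 74.9 in albino replicate 2. The 871-base unigene had 2.49 and 1.97 CPM in wild type, 5.82 in albino replicate 1 and 70.7 in albino replicate 2. The 4346-base unigene had 3.92 and 4.52 CPM in wild type, 9.50 in albino replicate 1 and 62.3 in albino replicate 2. Across these 3, albino replicate 1 was 2.25-fold to 2.61-fold above the wild type mean, whereas albino replicate 2 was 11.7-fold to 31.7-fold above it. The 1599-base unigene, with 1.94-fold in albino replicate 1, lay outside the former range.

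The last of the 7, 1409 bases long, was read in albino libraries only. It had 310 unique counts (17.9 CPM) in albino replicate 1, 1313 (74.8 CPM) in albino replicate 2 and 0 in both wild type libraries, where FPKM was also listed at 0. Against a floor of 3 counts over the wild type group, albino replicate 1 was at least 203-fold and albino replicate 2 at least 851-fold higher. The wild type libraries counted as matching here because both were at 0.

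In 2 unigenes both albino libraries were far below wild type. The 2733-base unigene had 154 and 147 CPM in wild type, 0.691 CPM from 12 counts in albino replicate 1 and 6.21 CPM from 109 counts in albino replicate 2. It was 218-fold below wild type in the former, with a 95% counting interval from 125 to 422, and 24.3-fold below in the latter, with an interval from 20.1 to 29.6. Albino replicate 2 exceeded replicate 1 there by 8.99-fold, with a 95% counting interval from 4.94 to 17.9. The intervals are exact conditional binomial ones and cover counting error only.

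UniGene_136303, 1098 bases long, was the only one of the 13 with the higher level in albino replicate 1, and it rests on 2 unique counts. It had 1083 and 1092 counts in wild type, or 63.8 ± 0.689 CPM (SD, n = 2), then 2 in albino replicate 1 and 0 in albino replicate 2. The exact Poisson 95% intervals of the albino counts, 0.242 to 7.22 and 0 to 3.69, overlap, so a difference between the albino libraries was not detectable at this depth. It left the list when 1 instead of 0.5 was added to the counts. Albino replicate 1 was 554-fold below wild type, with a 95% counting interval from 153 to 4574, and albino replicate 2 at least 373-fold below by the floor of 3 counts. For albino replicate 2 the exact 95% counting interval begins at 303-fold.

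For the unigenes read in both albino libraries a wide gap was fixed by the choice, so intervals on it describe counting error and give it no support. Albino replicate 2 exceeded replicate 1 by 4.01-fold for UniGene_115372, with a 95% counting interval from 3.79 to 4.24, which reaches under the 4-fold limit. The 871-base unigene had the widest gap of those with reads in both, 12.1-fold, with an interval from 9.91 to 15.0. These intervals do not include the variation between animals or preparations, which 1 library per side cannot show.

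Read against a limit of 2-fold around the wild type mean, the albino libraries took different places. Albino replicate 1 was below the wild type level in 6 of the 13 unigenes, near it in 2 and above it in 5. Over all 5349 unigenes with a mean of at least 20 CPM these shares were 8.97%, 85.3% and 5.7%. Albino replicate 2 was below in 2, near in 2 and above in 9, against 7.35%, 84.2% and 8.45% over all. A 4-fold gap places at least 1 albino library 2-fold or more from any wild type level, which limits the number near it. The place of the other albino library is not set by the gap. The albino library nearer to wild type was replicate 1 in 9 of the 13 and in 56.5% of all 5349. No unigene of the 13 had albino replicate 1 above and albino replicate 2 below, and none of the 5349 had.

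**Figure D2:**
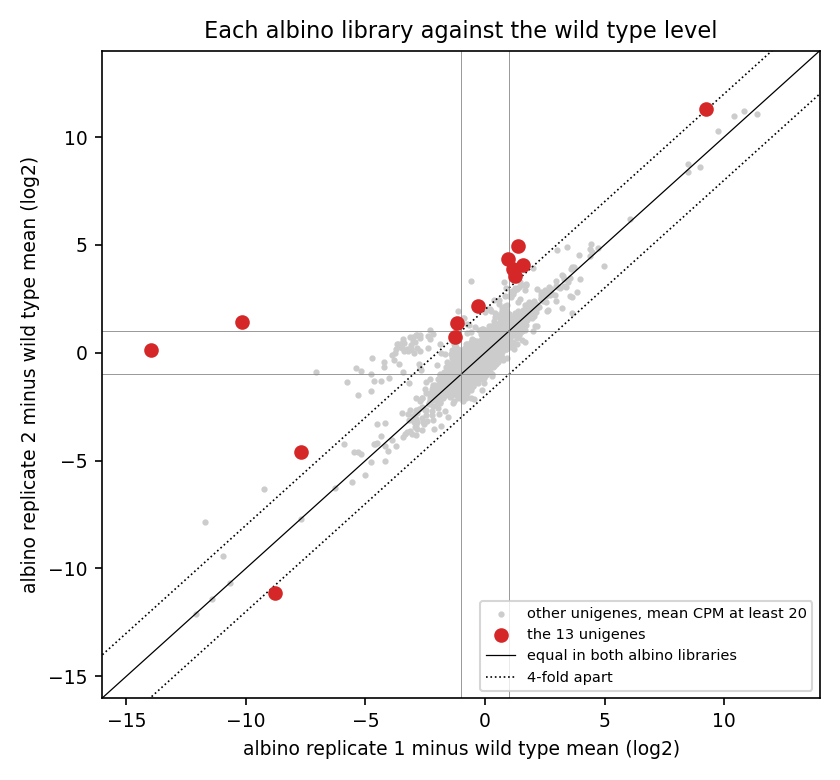
Log2 difference of albino replicate 1 (horizontal) and albino replicate 2 (vertical) from the wild type mean, for the 13 unigenes (red) and the other unigenes with a mean of at least 20 CPM (grey). The solid line marks equal albino levels, dotted lines a 4-fold gap and thin lines 2-fold from wild type. Of the red points, 12 lie above the upper dotted line and 1 below the lower.

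Between the groups, both albino libraries lay above both wild type libraries for 6 of the 13 unigenes and below both for 2, and the groups overlapped for 5. Groups that did not overlap made up 76.1% of all 5349 unigenes. In edgeR's quasi-likelihood test over 37893 unigenes, 8 of the 13 passed an adjusted p under 0.05, 6 higher and 2 lower in albino, where 33.1% of all tested unigenes passed, 16.3% higher and 16.8% lower. The choice used these levels, so the count is a description. Each SE of an edgeR log2 change, here and below, is that change divided by the square root of the test's F statistic. It is not a separately fitted error. The median log2 change was 1.31 over the 13 and -0.00 over all tested. The 6 called higher were those with both albino libraries above, from 2.71 (SE 0.61, edgeR adjusted p = 0.0179) for the 3703-base unigene to 3.97 (SE 1.02, edgeR adjusted p = 0.0274) for the 871-base unigene, apart from the 1409-base one, which had no wild type counts. UniGene_136303 was called lower, by -9.99 on the log2 scale (SE 0.40, edgeR adjusted p = 0.000158), and so was the 2733-base unigene, with -5.54 (SE 0.72, edgeR adjusted p = 0.0033). For UniGene_136303 the Wald test of DESeq2 gave -10.2 with a larger SE, 1.04, so the SE of 0.40 understates the uncertainty. UniGene_136303 met the minimum level and the filter through wild type alone, and the 1409-base unigene through albino alone, so that each had to differ between the groups. The 2733-base unigene, with an albino mean of 3.45 CPM, also reached the minimum of 20 CPM through wild type. The others called higher had wild type means of 2.23 to 18.3 CPM, under that minimum, and reached it through albino. All 8 calls are therefore tied to the choice.

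The 5 that did not pass were the unigenes whose groups overlapped. UniGene_149033 had a fitted log2 change of -1.02 with an SE of 1.84 (edgeR adjusted p = 0.701), a value that describes neither albino library. UniGene_115372 had -0.04 with an SE of 0.49 (edgeR adjusted p = 0.959). Without wild type replicate 1 its log2 change was 0.01, and without wild type replicate 2 it was -0.16. In those fits the spread came from the albino libraries.

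Each albino library was also set against the wild type libraries by itself. Such a fit takes its spread from wild type, assumes that a lone albino library varies like it, and shares the wild type libraries with the other fit. The choice of unigenes fixed a small spread within wild type and at least 1 albino library far from it, so the counts and values below are descriptions and nothing is read from them. With albino replicate 1, 12 of the 13 passed, 6 higher and 6 lower, where 36.2% of 41844 unigenes passed (17.4% higher, 18.7% lower), and the 2195-base unigene did not (log2 change -0.20, SE 0.18, edgeR adjusted p = 0.389). With albino replicate 2, 12 of the 13 passed, 10 higher and 2 lower, where 37.9% of 43856 unigenes passed (18.7% higher, 19.2% lower), and UniGene_149033 did not (log2 change -0.03, SE 0.14, edgeR adjusted p = 0.893). UniGene_115372 passed in both fits with opposite signs, at -1.18 (SE 0.15) with albino replicate 1 and 0.59 (SE 0.14) with albino replicate 2.

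The wild type limit removed far more unigenes than it kept, and those differed in their wild type pattern. Another 68 unigenes met every other limit but had wild type libraries more than 1.5-fold apart. All 68 were higher in albino replicate 2 than in replicate 1 and also higher in wild type replicate 1 than in replicate 2. Among the 13, wild type replicate 1 was the higher in 7 after 0.5 was added to the counts. The 1409-base unigene is counted there, although it had 0 counts in both wild type libraries and only the library totals set its order. The median levels of the 68 were 72.3 and 32.5 CPM in wild type, 8.55 in albino replicate 1 and 73.3 in albino replicate 2, so that wild type replicate 2 also stood below the other wild type library. Albino replicate 1 was the lowest of the 4 libraries in 61 of the 68 and in 6 of the 13. Albino replicate 2 exceeded both wild type libraries in 27 of the 68 and in 11 of the 13. The gap within wild type had a median of 2.26-fold in the 68, from 1.54 to 6.78, whereas it was 1.02-fold to 1.26-fold in the 13. These differences in the wild type gap follow from the limit, but the shared direction of the 68 does not. What the 68 encode is not given in the files, and they hold the longest unigene of the table, at 34658 bases.

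**Figure D3:**
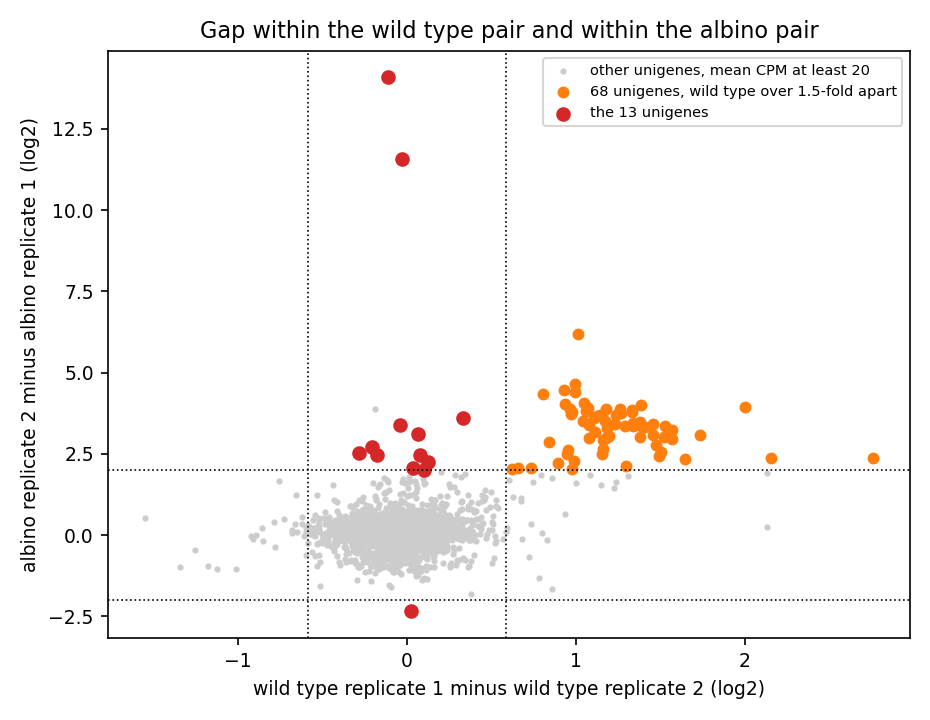
Log2 gap within wild type (horizontal, replicate 1 minus replicate 2) against the log2 gap within albino (vertical, replicate 2 minus replicate 1) for unigenes with a mean of at least 20 CPM. Dotted lines mark 1.5-fold and 4-fold, red points are the 13 unigenes and orange points the 68 with wild type libraries further apart. The orange points all lie in the upper right, and the red points nearest to them reach a wild type gap of 1.26-fold.

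By the authors' FPKM, which counts reads beyond the unique ones, all 13 unigenes had the gap in the same direction and at least 4-fold (0.03 added). FPKM comes from the same libraries, so it is not a separate measurement. For UniGene_136303 it was 0.107 in albino replicate 1 and 0 in albino replicate 2, so that gap rests on the 0.03 added. Per kilobase, the highest of the 13 in albino replicate 2 were the 721-base unigene at an FPKM of 465 and the 730-base unigene at 447, ranked 223 and 232 among the 110708 unigenes of that library. In the wild type libraries the 721-base unigene had an FPKM of 72.4 and 77.1, with ranks of 1011 and 935, and the 730-base unigene 23.8 and 27.1, with ranks of 2851 and 2512. In albino replicate 1 the former was listed at 0.00027 and the latter at 81.1.

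The 721-base unigene also had more FPKM per unique count in albino replicate 2 than in wild type. Multiplied by length in kilobases, the FPKM per unique count was 0.0954 and 0.0974 in wild type and 0.216 in albino replicate 2. The median over all with a mean of at least 20 CPM and at least 50 counts was 0.0569 and 0.0559 in wild type and 0.0561 in albino replicate 2. Its level is uncertain to that extent, since FPKM covers reads beyond the unique counts. For UniGene_149033 the same quantity was 0.0587 and 0.057 in wild type and 0.0554 in albino replicate 2.

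The 13 unigenes had a lower median length than all unigenes of this minimum level, a difference that was not tested. Their lengths ran from 721 to 9397 bases with a median of 1768, against 2590 over all 5349 unigenes. Their median level was 35.0 CPM, against 41.7 over all, within bounds set by the choice. UniGene_149033 ranked 323 by mean level, and the 4346-base unigene ranked 5334.

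Around the limits of the albino gap and the mean level, values changed by little. UniGene_115372 lay just inside the 4-fold gap at 4.01-fold, and the first unigene outside it, 2956 bases long, had 151 and 147 CPM in wild type, 92.6 in albino replicate 1 and 360.3 in albino replicate 2, a gap of 3.89-fold. The 4346-base unigene was just inside the minimum at a mean of 20.1 CPM, and a unigene of 2279 bases just under it had a mean of 18.1 CPM with the higher level in albino replicate 1, at 16.1 against 3.76 CPM. Just outside the wild type limit was a 3982-base unigene with wild type libraries 1.54-fold apart. The nearest inside it, the 871-base unigene, had them 1.26-fold apart, so no unigene that met the other limits lay between. The exclusion of the 200 highest removed 1 unigene, 9025 bases long, with 1166 and 1330.1 CPM in wild type, 0.346 in albino replicate 1 and 5.47 in albino replicate 2.

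The number found depended on the minimum gap, and the excess in albino replicate 2 was present at each one tried. At 2-fold, 80 unigenes were higher in albino replicate 2 and 29 in albino replicate 1. At 3-fold the numbers were 28 and 3, and at 8-fold 5 and 0. With the 4-fold gap kept, the excess was weaker under some other settings. It was 8 and 2 with TMM-adjusted library sizes, 21 and 7 at a mean of at least 10 CPM, and 23 and 10 on FPKM. With wild type within 2-fold the numbers were 29 and 1. Over the 5349 unigenes the median gap itself was 0.12 on the log2 scale toward albino replicate 2. Scaled to TMM-adjusted library sizes this median was -0.10, a shift toward albino replicate 1. Relative to the median, 11 of the 13 remained at least 4-fold apart under either scaling, and all 13 kept their direction. With TMM-adjusted library sizes alone, 11 of the 13 also remained at least 4-fold apart. UniGene_115372 was among those that did not, with the lowest gap, 3.44-fold. The whole rule on those sizes found 10 unigenes, 9 of them among the 13.

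**Figure D4:**
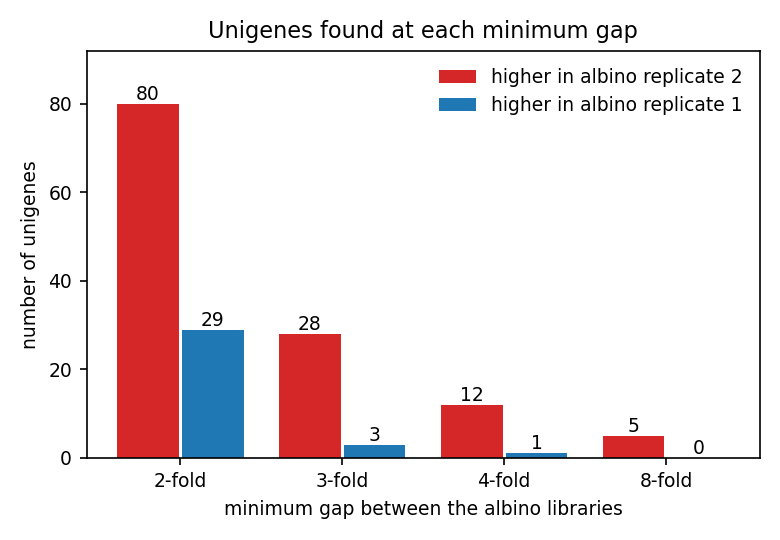
Number of unigenes found at each minimum gap between the albino libraries, with the other limits kept, for those higher in albino replicate 2 (red) and in albino replicate 1 (blue). The counts fall from 80 and 29 at 2-fold to 12 and 1 at 4-fold and 5 and 0 at 8-fold.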

How the data were processed

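Skin RNA of 2 wild type and 2 albino libraries was read, grouped by the titles and the genotype. Ribosomal RNA was removed and a directional kit used, per the labels' protocols. Trimmomatic is named in the submitters' processing notes. Tools for assembly, alignment and counting: not given in the sources used here. Deposited counts are unnormalized whole numbers of unique reads per unigene, 1 table per library, per the file headers. The deposited FPKM values were scaled by the authors and cover reads beyond the unique counts. Their division among unigenes is not stated.

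CPM used each library's total (3 counts are 0.171 to 0.178 CPM). The unigenes and all limits were chosen with earlier results of these data known. The named ones are the 2 with the highest mean CPM in each direction of the gap, which had 12 and 1 members. The quasi-likelihood test of edgeR (version 4.0.16, in R 4.3.3, with TMM, minimum count 10, minimum total 15, group as the only factor, 2 residual degrees of freedom) was fitted to all 4 libraries and adjusted over all unigenes by Benjamini-Hochberg. It was run on simulated counts with an equal spread in both groups, which cannot show how it performs on pairs of unequal spread. All 13 passed its filter, 2 of them through 1 group alone. The labels name no batch or separate animals, so p-values measure only the spread between these libraries, and a batch that ran along the groups cannot be told apart from genotype. Alternatives were other limits and scalings, DESeq2 (1.42.0), left-out libraries and a replicate block. No sequences were used.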

Additional observations from a re-analysis of the deposited data

How the results depend on the processing

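Of the 12531 unigenes called by edgeR, 8 were among the 13. Leaving out 1 library gave 3690 to 16604 calls over all unigenes and 3 to 12 among the 13, with the low ends where a wild type library was left out. The stricter filter (50 counts in 2 libraries) gave 7492 calls, but of only 18722 tested, with 7 of the 13. DESeq2's Wald test gave 7821 and an adjusted p under 0.01 gave 5177, with 7 and 3 of the 13. No filter and DESeq2 size factors kept the numbers of calls over all and among the 13 within 1.5 times, though 96000 unigenes were tested without a filter. The replicate block gave 9022 calls and 6 of the 13, and the correlation of same-numbered libraries' deviations was -0.13. The crossed block, added after seeing the data, gave 13420 calls and 8 of the 13. The log2 change of UniGene_115372 went from -0.04 to 0.01 without wild type replicate 1 and to 0.59 without albino replicate 1, both with a changed sign. Without albino replicate 2 it was -1.18.

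The rule found 13 unigenes. It found 28 at a mean of at least 10 CPM and 5 at 50 CPM. It found 109, 31 and 5 at a gap of 2-fold, 3-fold and 8-fold, and 30 with wild type within 2-fold. On FPKM in place of CPM (0.03 added, a mean of at least 20) it found 33, with 6 of the 13 among them. The other limits gave 10 to 14. Albino replicate 2 was above the wild type level in 69.2% of the 13 and in 27.3% of the 33. Albino replicate 1 was below it in 46.2% of the 13 and in 80.0% of the 5 found at 50 CPM. The other settings gave 40.0% to 81.8% for the share above and 25.7% to 66.7% for the share below. These lie inside the 95% binomial intervals of 38.6% to 90.9% and 19.2% to 74.9%, which are wide. Such intervals treat unigenes chosen by these same levels as independent, and every setting shares unigenes with the 13. They therefore do not show the shares to be stable. The rule needs all 4 libraries, so no library could be left out of it. Depth limits UniGene_136303 most, with 2 and 0 albino counts.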

Other observations

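A transcript read in a single library was also looked for, after the data were seen. With at least 5 CPM in 1 library and 0 unique counts in the other 3, 3 unigenes were found for albino replicate 1, 7 for albino replicate 2 and 0 for either wild type library. None is among the 13, because their means are under 20 CPM. The most abundant of them, 397 bases long, had 401 unique counts (22.9 CPM) and an FPKM of 96.0 in albino replicate 2. It was listed at an FPKM of 0 elsewhere. The most abundant in albino replicate 1, 2392 bases long, had 146 counts (8.41 CPM) and an FPKM of 15.9.

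Unigenes with 1 library apart from all others were also counted after the data were seen. Among unigenes with a mean of at least 20 CPM, 51 had albino replicate 1 at least 4-fold below the lowest of the other libraries, 3 of them among the 13. For wild type replicate 2 the number was 4, for albino replicate 2 it was 1 and for wild type replicate 1 it was 0. In the opposite direction, 14 had albino replicate 2 at least 4-fold above the highest of the others, 7 of them among the 13, and the number was 0 for each of the other libraries.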
